A study of Mus musculus with 12 samples.

Results

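The chemokine ligands examined were 10 genes, chosen by name: *Ccl2*, *Ccl3*, *Ccl4*, *Ccl5* and *Ccl6* of the CC class, *Cxcl1*, *Cxcl10*, *Cxcl12* and *Cxcl16* of the CXC class, and *Cx3cl1*. All 10 were present among the 15768 genes listed for both GEC subpopulations. RNA-seq was done on glomerular endothelial cells (GEC) of 3 wild type (WT) and 3 Alport syndrome (AS) mice, sex-matched, all 4 months old and on a C57BL/6 background, and the AS mice carried a Col4a5 -/- genotype, which removes a chain of the collagen of the glomerular basement membrane. Every mouse, WT included, carried the TekCre tdTomato reporter, in which Cre driven by *Tek* switches on tdTomato from the Rosa26 locus. Cells released from sieved glomeruli were sorted by their tdTomato signal into a dim and a bright subpopulation, so each mouse gave 1 dim and 1 bright library and there were 4 groups of 3 libraries: WT-dim, WT-bright, AS-dim and AS-bright. The sort relied on the reporter and no other marker is named for it, and Cre from a *Tek* promoter is also known to label cells of the blood lineage.

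Chemokines are small secreted proteins that guide leukocytes by engaging G protein-coupled receptors on them. Endothelium displays them on its surface to arrest passing cells, and leukocytes release them themselves, which draws in more cells. CC ligands act mainly on monocytes, T cells and NK cells, CXC ligands of the *Cxcl1* type act on neutrophils, and *Cxcl10* is induced by interferons. *Cx3cl1* (fractalkine) and *Cxcl16* are made as membrane-anchored proteins that can be shed.

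Libraries held 11440169 to 15074909 counts on genes (median 13798656). The labelled endothelial identity was checked with 10 endothelial markers, such as *Pecam1*, *Cdh5* and *Kdr*. Their summed level was 10524 to 16281 CPM (counts scaled to a common library size by TMM) in WT-bright and 15726 to 18470 CPM in AS-bright, against 708 to 1321 CPM in WT-dim and 224 to 313 CPM in AS-dim, and 7 of the 9 tested markers were lower in AS-dim than in WT-dim, where 6.42% of all genes were and where 0 of all genes passed without AS-dim replicate 1. Leukocyte markers ran the other way. The 6 macrophage and monocyte markers listed in both tables summed to 148 to 223 CPM in WT-bright and 239 to 330 CPM in AS-bright, but to 5394 to 9734 CPM in WT-dim and 11110 to 14179 CPM in AS-dim. *Adgre1* was at 3 counts or fewer in every WT-bright library, and *Itgam*, *Fcgr1*, *Cd3e* and *Cd3g* were not listed for bright GEC. The deposited tables are labelled as manually filtered, by a rule not given in the sources used here, and no listed gene had fewer than 8 counts over the 6 libraries of its table, so a gene that is not listed cannot be read as having no RNA. The 4 T and NK cell markers in both tables reached at most 4.59 CPM in bright libraries and at least 776 CPM in dim ones, and the 4 B cell markers at most 5.61 CPM and at least 541 CPM. The 4 neutrophil markers summed to 451 to 1940 CPM in WT-dim and 438 to 751 CPM in AS-dim. These RNA markers go against the endothelial label of the dim libraries. Bright libraries also held RNA of other kidney cells. Podocyte markers summed to 901 to 1133 CPM in WT-bright and 1281 to 1428 CPM in AS-bright, and mesangial and mural markers to 424 to 814 CPM and 442 to 783 CPM. The study also stained sorted cells for the proteins EHD3 and WT1, a measure not analysed here, and "dim GEC" is kept here as the name of the sorted fraction. In bulk samples fewer cells of a type and less RNA per cell cannot be told apart, and this holds for each ligand described here.

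RefSeq promoters (GRCm38.p6, 250 bases before to 50 after the start) were found for 6 of the 10 ligands. The 3 printed here belong to *Cxcl1* and *Cxcl10*, which were higher in bright GEC in both genotypes, and to *Ccl6*, the most abundant ligand of the dim GEC. That of *Cx3cl1* is not printed, since its RefSeq start lies inside the first exon of the Gencode gene. The RefSeq start of *Cxcl1* also lies inside the Gencode gene, by a smaller distance. Capitals mark matches, on either strand, to the NF-kappaB consensus and to the interferon response core (GAAA, any 2 bases, GAAA).
Cxcl1: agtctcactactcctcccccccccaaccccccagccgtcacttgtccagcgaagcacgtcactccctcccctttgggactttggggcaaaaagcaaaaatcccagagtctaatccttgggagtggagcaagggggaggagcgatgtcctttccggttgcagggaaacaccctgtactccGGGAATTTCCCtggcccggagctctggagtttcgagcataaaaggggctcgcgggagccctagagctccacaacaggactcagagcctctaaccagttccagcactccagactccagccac
Cxcl10: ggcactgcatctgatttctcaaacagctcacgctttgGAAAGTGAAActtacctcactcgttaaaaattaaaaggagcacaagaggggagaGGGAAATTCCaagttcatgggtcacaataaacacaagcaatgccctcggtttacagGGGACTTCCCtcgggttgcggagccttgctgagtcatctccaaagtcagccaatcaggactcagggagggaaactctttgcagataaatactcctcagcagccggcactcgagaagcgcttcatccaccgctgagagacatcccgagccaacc
Ccl6: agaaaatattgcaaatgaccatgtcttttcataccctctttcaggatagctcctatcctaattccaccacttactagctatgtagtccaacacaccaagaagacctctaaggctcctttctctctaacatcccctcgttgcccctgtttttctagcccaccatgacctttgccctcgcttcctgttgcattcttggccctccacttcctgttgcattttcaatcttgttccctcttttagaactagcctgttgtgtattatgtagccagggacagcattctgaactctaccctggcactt
These windows lie at chr5:90890995-90891294 (plus strand), chr5:92348840-92349139 (minus strand) and chr11:83593038-83593337 (minus strand). *Cxcl1* held the NF-kappaB consensus at -71 to -61 from the start, where matches on both strands overlap by all but 1 base. *Cxcl10* held it at -159 to -150 and -103 to -94, and held the interferon response core at -213 to -204. The *Ccl6* window had neither motif, and neither had the windows of *Ccl3*, *Cxcl12* and *Cx3cl1* that are not printed. Of all 32851 RefSeq promoter windows of 300 bases, 4.5% held the NF-kappaB consensus and 3.4% the interferon response core. Such a match describes letters and shows no binding.

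The dim and bright GEC differed in nearly every ligand. In WT mice 9 of the 10 passed the test between bright and dim GEC, 3 higher and 6 lower in bright, where 25.3% of all genes tested passed (13.8% higher and 11.5% lower). In AS mice 10 of the 10 passed, 4 higher and 6 lower in bright, where 55.1% of all genes passed (28.6% higher and 26.5% lower). *Ccl2*, *Ccl3*, *Ccl4*, *Ccl5*, *Ccl6* and *Cxcl16* were higher in dim GEC, and *Cxcl1*, *Cxcl10* and *Cx3cl1* were higher in bright GEC, in both genotypes. *Ccl2*, *Ccl3*, *Ccl4* and *Ccl5* entered this test on the strength of their dim libraries, since they were too low to be tested among the bright libraries. The median log2 fold change of the 10 ligands was -3.35 in WT and -2.93 in AS, beside -0.04 and 0.02 over all genes tested. All adjusted p-values come from the quasi-likelihood test of edgeR, adjusted by Benjamini-Hochberg across the genes tested, and the dim and bright libraries of a number come from the same mouse.

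**Figure D1:**
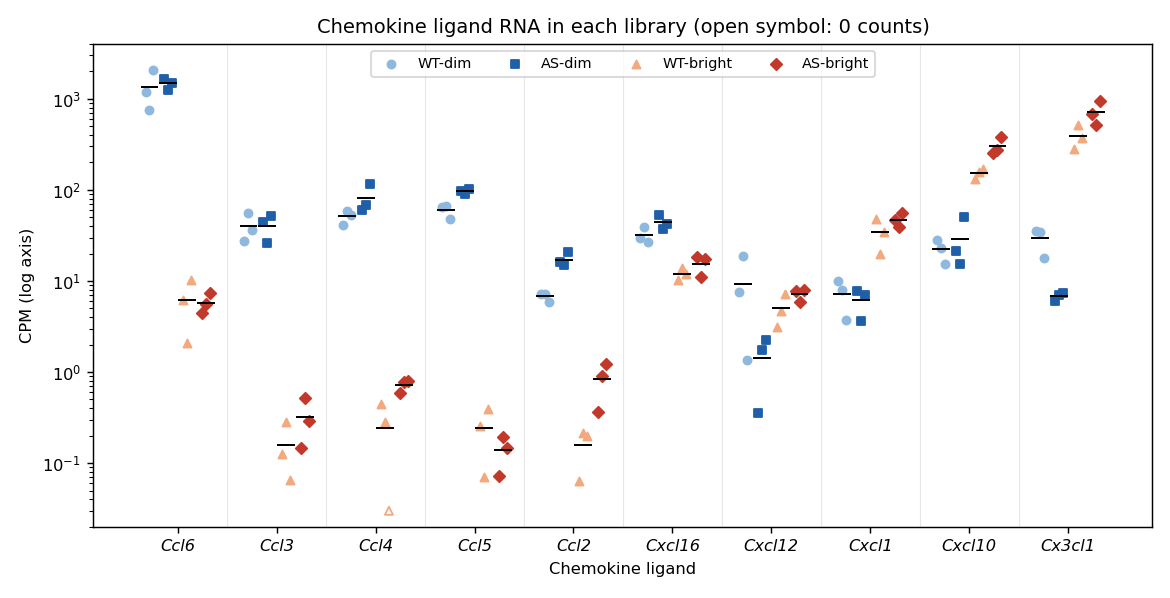
Each point is the level of a ligand in 1 library, in CPM on a log axis, and each line is the mean of 3 libraries; the open triangle is the WT-bright library with 0 counts of Ccl4. The CC ligands sit high in the dim libraries (blue) and low in the bright ones (orange and red), and Cxcl1, Cxcl10 and Cx3cl1 sit the other way.

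*Ccl6* (chromosome 11, 83587882 to 83593087, minus strand), a macrophage ligand of CCR1, had the highest level of all. It stood at 1185, 757 and 2062 CPM in the WT-dim and 1652, 1265 and 1509 CPM in the AS-dim libraries. The bright libraries had 6.26, 2.07 and 10.3 CPM in WT and 4.44, 5.61 and 7.35 CPM in AS. No bright library came near a dim one. Bright over dim, the log2 fold change was -7.69 (standard error 0.65, adjusted p = 5.49e-05) in WT and -8.00 (standard error 0.27, adjusted p = 3.05e-08) in AS. Per 100 counts of the 6 macrophage markers, *Ccl6* had 10.6 to 21.2 counts in dim and 1.39 to 4.6 counts in bright libraries. The same ratio for *Ccl2* overlapped, at 0.0606 to 0.145 counts in dim and 0.0377 to 0.382 counts in bright libraries. Those of *Ccl3* (0.235 to 1.03 and 0.0295 to 0.218) and *Ccl4* (0.517 to 1.1 and 0 to 0.328) did not, on few bright counts. *E230016K23Rik*, a noncoding gene, overlaps *Ccl6* on the other strand and had at most 166 counts in any library.

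*Ccl3* and *Ccl4* (chromosome 11, 83647844 to 83649355 on the minus strand and 83662584 to 83664683 on the plus strand) are neighbours and encode MIP-1 alpha and MIP-1 beta. *Ccl3* was at 27.5, 55.6 and 36.3 CPM in WT-dim and at 44, 26.1 and 51.5 CPM in AS-dim. *Ccl4* was at 40.7, 59.1 and 53.5 CPM in WT-dim and at 60.7, 69 and 115 CPM in AS-dim. In bright GEC both were close to the limit of detection. The raw counts of *Ccl3* were 2, 4 and 1 in WT-bright and 2, 8 and 4 in AS-bright, and those of *Ccl4* were 7, 4 and 0 in WT-bright and 8, 12 and 11 in AS-bright. The ratio of dim to bright from summed counts was 257 for *Ccl3* (95% exact interval 124 to 641) in WT and 125 (74.2 to 229) in AS. For *Ccl4* it was 210 (117 to 421) in WT and 111 (78.4 to 164) in AS. These intervals cover counting error only. The log2 fold changes lay between -7.87 and -6.80 for these genes (adjusted p at most 6.86e-06, edgeR's quasi-likelihood test).

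*Ccl5* (RANTES, a product of T and NK cells; chromosome 11, 83525778 to 83530518, minus strand) stood at 64.3, 67.2 and 47.7 CPM in WT-dim and at 97.1, 90.4 and 103 CPM in AS-dim. The WT-bright libraries had 4, 1 and 6 counts, and the AS-bright libraries 1, 3 and 2. The summed counts gave a dim to bright ratio of 244 (95% exact interval 136 to 490) in WT and of 691 (317 to 1883) in AS. *Ccl5* thus had the highest ratio of the 4 low CC ligands in AS, though the interaction of genotype and subpopulation did not pass for it (log2 difference -1.46, standard error 0.88, adjusted p = 0.401).

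*Ccl2* (MCP-1, the ligand that draws monocytes through CCR2; chromosome 11, 82035571 to 82037453, plus strand) was the lowest of the 5 CC ligands examined in dim GEC. It had 7.28, 7.27 and 5.9 CPM in WT-dim and 16, 14.8 and 20.6 CPM in AS-dim. WT-bright libraries had 1, 3 and 3 counts and AS-bright libraries 5, 14 and 17. The dim to bright ratio was 43.8 (95% exact interval 20.9 to 110) in WT and 20.3 (14.5 to 29.3) in AS, in both genotypes the lowest ratio among *Ccl2*, *Ccl3*, *Ccl4* and *Ccl5*.

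*Cxcl16* (chromosome 11, 70453983 to 70459984, minus strand), the membrane-bound ligand of CXCR6, was higher in dim GEC by a small factor. It was at 29.9, 39.5 and 26.7 CPM in WT-dim and 10.3, 13.8 and 12 CPM in WT-bright. AS-dim libraries had 52.7, 37 and 42.1 CPM and AS-bright libraries 18.2, 11.1 and 17.3 CPM. The groups did not overlap in either genotype. *Zmynd15*, on the other strand, overlaps *Cxcl16* and had at most 33 counts in any library. Bright over dim, the log2 fold change was -1.37 (standard error 0.34, adjusted p = 0.0163) in WT and -1.52 (standard error 0.25, adjusted p = 0.000596) in AS. In WT it no longer passed without WT-dim replicate 2 (adjusted p = 0.061), WT-bright replicate 1 (0.0519) or WT-bright replicate 3 (0.0663).

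*Cxcl12* (chromosome 6, 117168535 to 117181367, plus strand), the homeostatic ligand of CXCR4 and of the scavenging receptor ACKR3, was low throughout. It was at 7.63, 18.6 and 1.35 CPM in WT-dim and 3.1, 4.7 and 7.23 CPM in WT-bright, groups that overlapped (log2 fold change -0.83, standard error 0.77, adjusted p = 0.461). In AS the dim libraries had 0.353, 1.74 and 2.23 CPM and the bright ones 7.72, 5.87 and 8.01 CPM. There it was higher in bright GEC, by 2.34 on the log2 scale (standard error 0.48, adjusted p = 0.00226).

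*Cxcl1* (chromosome 5, 90891241 to 90893115, plus strand), a neutrophil attractant, was at 48.1, 19.8 and 34.7 CPM in WT-bright and 46.6, 39.5 and 55.1 CPM in AS-bright. Dim libraries had 10.1, 8.03 and 3.71 CPM in WT and 7.78, 3.65 and 6.94 CPM in AS, below every bright library. The log2 fold change of bright over dim was 2.30 (standard error 0.50, adjusted p = 0.00892) in WT and 2.92 (standard error 0.29, adjusted p = 1.81e-05) in AS. *Cxcl10* (IP-10, the ligand of CXCR3 on activated T cells; chromosome 5, 92346638 to 92348889, minus strand) was higher still. It reached 131, 157 and 169 CPM in WT-bright and 253, 271 and 382 CPM in AS-bright, against 28.2, 23 and 15.4 CPM in WT-dim and 21.5, 15.4 and 50.6 CPM in AS-dim. Bright over dim, it was 2.83 higher on the log2 scale (standard error 0.29, adjusted p = 0.000179) in WT and 3.36 higher (standard error 0.40, adjusted p = 5.63e-05) in AS. *Art3* overlaps *Cxcl10* on the other strand and differed in the same direction, with 63 to 257 counts in WT-dim, 540 to 1462 in WT-bright, 7 to 122 in AS-dim and 627 to 1481 in AS-bright libraries. The strand that was counted is not given in the sources used here, so the reads of these genes cannot be told apart.

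*Cx3cl1* (chromosome 8, 94772009 to 94782427, plus strand), whose receptor CX3CR1 is carried by monocytes and NK cells, had the widest gap of the 3. It was at 282, 513 and 369 CPM in WT-bright and 673, 512 and 956 CPM in AS-bright. WT-dim libraries had 35.3, 34.5 and 18 CPM and AS-dim libraries 6.08, 6.96 and 7.34 CPM. The log2 fold change of bright over dim was 3.77 (standard error 0.35, adjusted p = 9.4e-05) in WT and 6.70 (standard error 0.30, adjusted p = 6.36e-08) in AS, which is 13.7-fold and 104-fold. *Cx3cl1* moved with the endothelial markers between dim and bright GEC. Per 100 counts of the 10 endothelial markers it had 2.55 to 3.02 counts in WT-dim, 2.59 to 3.15 in WT-bright and 2.35 to 2.71 in AS-dim libraries, ranges that overlap. AS-bright libraries had 3.64, 3.15 and 6.08, all above every AS-dim library. The last was the library with 956 CPM of *Cx3cl1* and the lowest marker sum of that group (15726 CPM). The same ratio was not alike for *Cxcl10*, at 1.74 to 2.42 in WT-dim, 0.964 to 1.24 in WT-bright, 5.24 to 16.2 in AS-dim and 1.37 to 2.43 in AS-bright, nor for *Cxcl1*, at 0.524 to 0.865, 0.122 to 0.457, 1.24 to 3.46 and 0.243 to 0.35 in the same order.

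**Figure D2:**
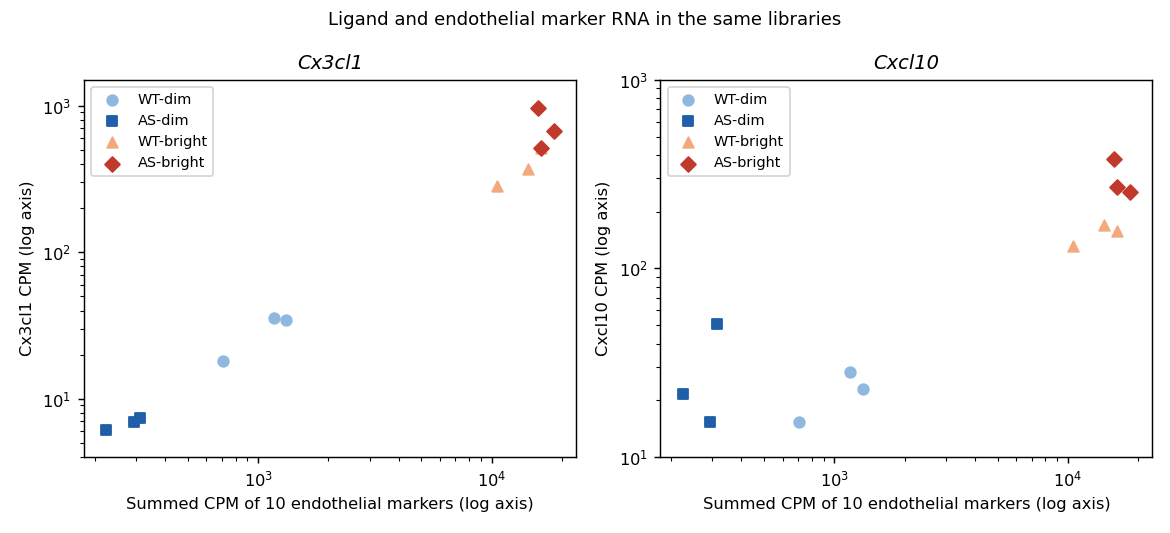
Each point is 1 library: on the x axis the summed CPM of 10 endothelial markers, on the y axis the CPM of Cx3cl1 (left) or Cxcl10 (right), both on log axes. Cx3cl1 is lowest in AS-dim, where the markers are lowest, and highest in the bright libraries, though the library with 956 CPM has the lowest marker sum of AS-bright, and Cxcl10 in dim libraries does not follow them.

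Levels per length (RPKM, CPM per kilobase of the union of exons) put the ligands on a common scale, which depends on the length used. The union of exons covered the whole span of *Cxcl1* (1875 bases) and of *Cxcl10* (2252 bases), but only 3930 bases of the longer *Cx3cl1* gene. The order of the ligands and the shares given below rest on these lengths, and others were not tried. *Ccl6* led the dim GEC with 744 ± 371 RPKM (SD, n = 3) in WT and 822 ± 109 RPKM in AS, above *Ccl4* with 77.5 ± 14.3 and 123 ± 44 RPKM in every library. *Ccl4*, *Ccl5* and *Ccl3* followed in that order in both genotypes. In WT-dim the ranges of *Ccl4* and *Ccl5* and of *Ccl5* and *Ccl3* overlapped. In AS-dim those of *Ccl4* and *Ccl5* overlapped too, with *Ccl4* higher in 2 of 3 libraries, and *Ccl5* lay above *Ccl3* in every library. Below them in WT-dim came *Cxcl16*, *Cxcl10*, *Cx3cl1*, *Ccl2*, *Cxcl1* and *Cxcl12*, from 10.6 ± 2.19 down to 1.12 ± 1.07 RPKM, and each overlapped its neighbour. In AS-dim the order was *Ccl2*, *Cxcl16* and *Cxcl10*, which overlapped at 15.1 ± 2.69 to 13 ± 8.35 RPKM, then *Cxcl1* (3.27 ± 1.16), *Cx3cl1* (1.73 ± 0.165) and *Cxcl12* (0.176 ± 0.119), which did not. In the bright GEC *Cx3cl1* came first with 98.8 ± 29.6 RPKM in WT and 182 ± 57.2 RPKM in AS. *Cxcl10* was second with 67.7 ± 8.8 and 134 ± 30.8 RPKM; the ranges of these genes overlapped, though *Cx3cl1* was above *Cxcl10* in each of the 3 libraries of both groups. *Cxcl1* came next with 18.2 ± 7.54 and 25.1 ± 4.17 RPKM, clear of *Cxcl10* above and *Cxcl16* below it. All other ligands were at 5.14 RPKM or less on average in bright GEC.

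The sum of the 10 ligands was 699 to 1355 RPKM in WT-dim and 974 to 1249 RPKM in AS-dim libraries, and 164 to 218 RPKM in WT-bright and 282 to 456 RPKM in AS-bright libraries. *Ccl6* alone made up 60.4% to 84.8% of it in WT-dim and 67.3% to 75.6% in AS-dim. In bright GEC *Cx3cl1* made up 43.8% to 59.8% in WT and 46.1% to 53.6% in AS, and *Cxcl10* 32% to 37.8% and 35.2% to 42.7%. The total, which was not tested, was higher in AS-bright than in WT-bright in every library, where 13.6% of all genes lay higher without overlap. The shares of *Cx3cl1* and *Cxcl10* overlapped between the genotypes.

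**Figure D3:**
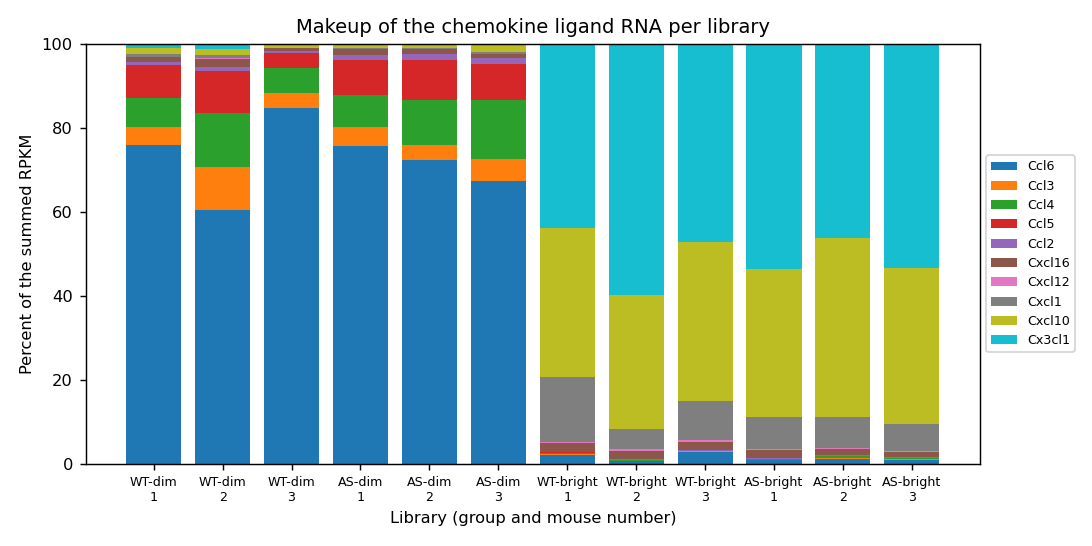
Stacked bars give the percent of the summed RPKM of the 10 ligands that each ligand made up, for each of the 12 libraries. Ccl6 fills 60.4% to 84.8% of the dim bars, and Cx3cl1 and Cxcl10 fill most of the bright bars.

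In dim GEC, AS over WT, 1 of the 10 ligands passed the test, where 8.63% of all genes tested passed (2.21% higher and 6.42% lower). These calls changed when a library was left out: over all genes, 1263 passed, and 0 without AS-dim replicate 1, 1 without AS-dim replicate 3 and 484 without AS-dim replicate 2. That ligand was *Cx3cl1*, which fell from 29.3 ± 9.72 CPM in WT-dim to 6.79 ± 0.648 CPM in AS-dim, with no overlap between the libraries given above. Its log2 fold change was -2.14 (standard error 0.38, adjusted p = 0.0217, edgeR's quasi-likelihood test). The call was lost without AS-dim replicate 1 (adjusted p = 0.113), 2 (0.0549) or 3 (0.113), with log2 fold changes of -2.20 to -2.09. Summed endothelial markers fell beside it, from 708 to 1321 CPM to 224 to 313 CPM, and the ratio of *Cx3cl1* to these markers overlapped between the genotypes. Markers of other kidney cells were lower in AS-dim as well. Podocyte markers summed to 470 to 993 CPM in WT-dim and 196 to 239 CPM in AS-dim, with 3 of 5 passing, and proximal tubule markers to 827 to 3541 CPM and 10.2 to 282 CPM, with 3 of 6 passing, where 6.42% of all genes were lower. Their part in the level of *Cx3cl1* was not tested.

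*Ccl2*, *Ccl4* and *Ccl5* lay higher in every AS-dim than in every WT-dim library without passing. *Ccl2* went from 6.82 ± 0.792 to 17.1 ± 3.07 CPM (log2 fold change 1.29, standard error 0.34, adjusted p = 0.0542), and it passed with library sizes alone (0.0471), DESeq2 (0.00361) and edgeR's likelihood ratio test (0.023). *Ccl5* went from 59.7 ± 10.5 to 96.8 ± 6.19 CPM (0.66, standard error 0.21, adjusted p = 0.0919), and *Ccl4* from 51.1 ± 9.46 to 81.5 ± 29.1 CPM (0.64, standard error 0.29, adjusted p = 0.21). Of all genes tested, 15.0% lay higher in AS-dim without overlap. Macrophage and monocyte markers were higher in AS-dim too, with 4 of 8 passing where 2.21% of all genes did. Of the T and NK cell markers 0 of 8 passed, 1 had an unadjusted p under 0.05 (26.3% of all genes), and 1 passed by DESeq2 (15.1%) and by the likelihood ratio test (13.3%), in each case *Cd3e*. The part of these markers in the levels of the ligands was not tested. Per 100 counts of the 6 macrophage markers listed in both tables, without *Itgam* and *Fcgr1*, *Ccl2* had 0.0606 to 0.135 counts in WT-dim and 0.133 to 0.145 in AS-dim libraries. These ranges overlap. Per 100 counts of the 4 T and NK cell markers listed in both tables *Ccl5* had 6.15 to 7.35 counts in WT-dim and 9.71 to 11.7 in AS-dim libraries, without overlap. That ratio leaves out *Cd3e*, *Cd3g*, *Nkg7* and *Klrb1c*.

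*Cxcl12* was lower in AS-dim, at 1.44 ± 0.975 against 9.19 ± 8.73 CPM, but the libraries overlapped and it did not pass (log2 fold change -2.74, standard error 0.96, adjusted p = 0.116). It passed by DESeq2 (adjusted p = 0.036) and without WT-dim replicate 3 (0.0298), the WT-dim library with 1.35 CPM. Without WT-dim replicate 2, the library with 18.6 CPM, its log2 fold change was -1.73 (adjusted p = 0.277). *Ccl3*, *Ccl6*, *Cxcl1*, *Cxcl10* and *Cxcl16* had log2 fold changes between -0.27 and 0.42, all with overlapping libraries.

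In bright GEC, AS over WT, 0 of the 6 ligands that could be tested passed, where 0.452% of all genes passed; 2 of the 6 had an unadjusted p under 0.05, where 21.8% of all genes did. By DESeq2 and by the likelihood ratio test 1 of them passed, in both cases *Cxcl10*, where 7.49% and 5.74% of all genes did. *Cxcl10* was at 152 ± 19.8 CPM in WT-bright and 302 ± 69.4 CPM in AS-bright, higher in every AS library (log2 fold change 0.92, standard error 0.22, adjusted p = 0.0669). DESeq2 gave an adjusted p of 0.00733 and the likelihood ratio test 0.0149. *Cx3cl1* was at 388 ± 116 and 714 ± 225 CPM (0.81, standard error 0.27, adjusted p = 0.136), where WT-bright replicate 2 with 513 CPM just exceeded AS-bright replicate 2 with 512 CPM. *Cxcl1*, *Cxcl12*, *Cxcl16* and *Ccl6* had log2 fold changes of 0.37, 0.45, 0.30 and -0.18, with overlapping libraries. A share of 13.6% of all genes lay higher in AS-bright without overlap. Podocyte markers summed to 901 to 1133 CPM in WT-bright and 1281 to 1428 CPM in AS-bright, with 0 of 5 passing, 4 at an unadjusted p under 0.05 and 2 passing by DESeq2. An unadjusted p under 0.05 was also found for 5 of 10 endothelial markers (median log2 fold change 0.43) and 2 of 5 macrophage and monocyte markers (0.58). The same held for 3 of 6 mesangial and mural (-0.26) and 5 of 6 proximal tubule markers (-2.57). Their part in these levels was not tested.

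*Ccl2*, *Ccl3*, *Ccl4* and *Ccl5* were too low to pass the filter of the main test between the bright groups. Summed counts of *Ccl2* were 36 in AS-bright and 7 in WT-bright, a ratio of 5.41 (95% exact interval 2.38 to 14.4, counting error only). For *Ccl4* they were 31 and 11, a ratio of 2.97 (1.45 to 6.54). With every gene kept that had a count, the adjusted p was 0.112 for *Ccl2* and 0.295 for *Ccl4*. The intervals of *Ccl3* (0.795 to 6.16) and *Ccl5* (0.174 to 1.69) held 1. The 6 macrophage and monocyte markers summed to 148 to 223 CPM in WT-bright and 239 to 330 CPM in AS-bright. Per 100 of their counts *Ccl2* had 0.0377 to 0.145 in WT-bright and 0.114 to 0.382 in AS-bright, and *Ccl4* 0 to 0.264 and 0.183 to 0.328, ranges that overlap. The part of these markers in the levels of the ligands was not tested.

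**Figure D4:**
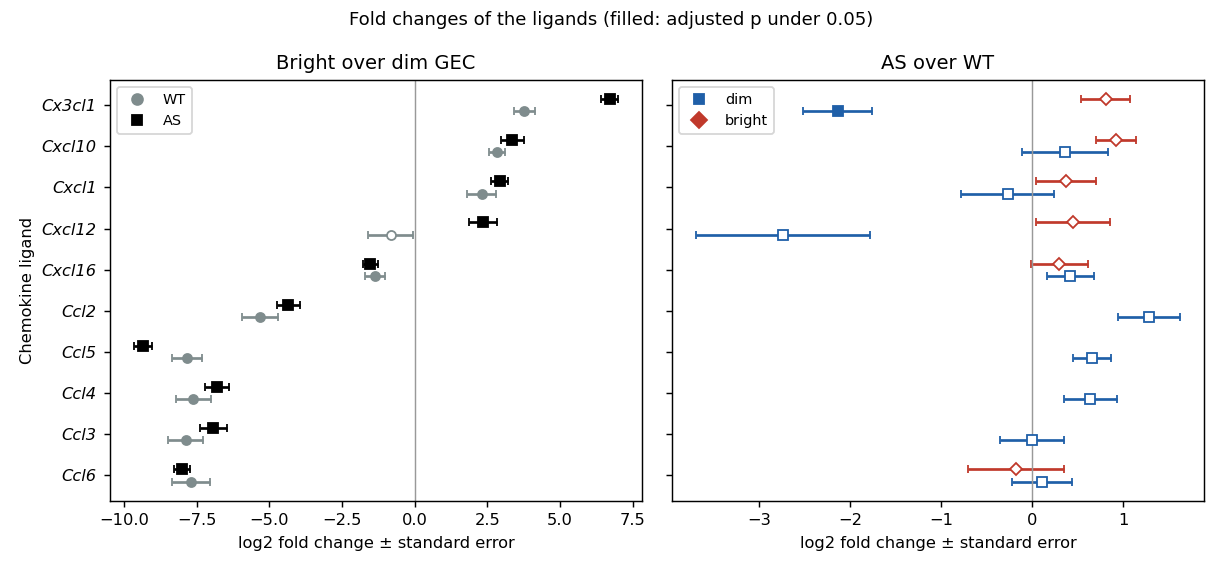
Points are log2 fold changes with bars of 1 standard error, for bright over dim GEC in WT and AS (left) and for AS over WT in dim and bright GEC (right); filled points passed the adjusted threshold of 0.05. Cx3cl1 is filled at -2.14 in dim GEC and open at 0.81 in bright GEC, and 4 CC ligands have no bright point because they were not tested there.

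The genotype effect was compared between subpopulations by an interaction term over all 12 libraries. *Cx3cl1* was the 1 ligand of 10 that passed, where 3.77% of all genes tested passed (569 genes, or 877 with the mouse as a replicate block). Its AS over WT difference was 2.98 higher on the log2 scale in bright than in dim GEC (standard error 0.45, adjusted p = 0.00432), and it passed in all 19 alternatives run. Of the endothelial markers 7 of 10 passed in that direction, and of the podocyte markers 5 of 5, where 2.96% of all genes did. For *Cxcl12* the difference was 3.22 (standard error 1.04, adjusted p = 0.11), and it passed without WT-dim replicate 3 (3.74, adjusted p = 0.0155), while without WT-dim replicate 2 it was 2.18 (adjusted p = 0.223). The remaining 8 ligands had differences between -1.46 and 1.04, none of which passed, and the median of all genes tested was 0.13.

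Genes whose log2 CPM ran most like a ligand over the 12 libraries, by Pearson's r among 15083 genes, are given as a description, since dim and bright libraries form separate clusters. *Cx3cl1* ran most like *Igfbp5* and *Cdh5*, the adherens junction cadherin of endothelium (r = 0.997 for both). *Cxcl10* ran like the interferon-induced GTPase gene *Irgm1* (0.989) and *Car8* (0.987), and *Cxcl1* like *Fam181b* (0.973) and *Lmna* (0.968). *Ccl3* ran like *Il18rap* (0.996) and the T cell receptor gene *Trac* (0.994), *Ccl4* like *Dok2* (0.996) and the MHC class II chaperone gene *Cd74* (0.995), and *Ccl2* like *Casp1* and the MHC class II gene *H2-Ab1* (0.989 for both). *Ccl5* ran like *Prkcb* and *Csf2rb2* (0.995 for both), *Ccl6* like *4833407H14Rik* and *Arhgap9* (0.996 for both), and *Cxcl16* like *Csk* (0.985) and *Xylt1* (0.978). *Cxcl12* had the lowest values, 0.937 with *Dcbld2* and 0.910 with *Akt1s1*.

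The chemokine receptors that could be compared were higher in dim GEC. Of 17 receptors, 13 were listed for dim and 6 for bright GEC, and the 6 in both tables were lower in bright GEC in WT and in AS, where 11.5% and 26.5% of all genes were lower. *Xcr1*, the receptor of *Xcl1*, was one of these 6, with 1, 4 and 0 counts in WT-bright and 23, 18 and 6 in AS-bright, and it entered this test through its dim libraries. *Ccr2*, the receptor of *Ccl2*, was at 213, 194 and 383 CPM in WT-dim and 613, 1012 and 936 CPM in AS-dim, against at most 4.05 CPM in any bright library. In dim GEC 2 of 13 tested receptors were higher in AS, where 2.21% of all genes were: *Ccr2* by 1.67 on the log2 scale (standard error 0.30, adjusted p = 0.023) and *Ccr6* by 2.31 (standard error 0.57, adjusted p = 0.0456). Without AS-dim replicate 1, 2 or 3 neither passed (adjusted p = 0.113, 0.0674 and 0.113 for *Ccr2*, and 0.173, 0.0847 and 0.115 for *Ccr6*). The call of *Ccr2* was also lost without WT-dim replicate 2 (0.0568), and that of *Ccr6* when any 1 of the WT-dim libraries was left out (0.0515 to 0.104), with every gene kept that had a count (0.0527) and by the version 3 fit (0.0717). *Ccr7* and *Cxcr5*, which guide lymphocytes, and *Cxcr4*, the receptor of *Cxcl12*, had log2 differences of 0.38, 0.94 and 0.67 that did not pass by the quasi-likelihood test. DESeq2 and the likelihood ratio test each called 4 of the 13 receptors, *Ccr2*, *Ccr6*, *Cxcr5* and *Cx3cr1*, where 15.1% and 13.3% of all genes were called. *Ccr9*, a homing receptor of T cells, was at 35.4 to 77.5 CPM in WT-dim and 71.8 to 101 CPM in AS-dim, a log2 difference of 0.69 that did not pass. In bright GEC it was at 3.73, 4.28 and 10.3 CPM in WT and 0.291, 1.11 and 0.364 CPM in AS (log2 fold change -3.38, standard error 0.69, adjusted p = 0.0547), a difference that DESeq2 and the likelihood ratio test called. Its interaction was the 1 of 6 among the receptors that passed (-4.04, standard error 0.74, adjusted p = 0.0104), where 0.815% of all genes passed in that direction. *Cx3cr1*, the receptor of *Cx3cl1*, was listed in the dim table alone, with 194 to 225 counts in WT and 418 to 616 counts in AS (log2 difference 1.12, standard error 0.29, adjusted p = 0.0526).

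Atypical receptors bind chemokines without guiding cells, and 1 of the 2 tested was lower in AS in dim GEC, where 6.42% of all genes were. *Ackr3*, which takes up *Cxcl12*, was at 17.6, 12.3 and 26.1 CPM in WT-dim and 0.636, 3.48 and 0.798 CPM in AS-dim, and at 13.7, 8.48 and 13 CPM in WT-bright and 22.2, 28.3 and 30.9 CPM in AS-bright. It was the one that passed there (log2 fold change -3.58, standard error 0.62, adjusted p = 0.0217), but not without AS-dim replicate 1 or 3 (adjusted p = 0.113 for both). Its interaction passed (4.76, standard error 0.66, adjusted p = 0.00418), also when any 1 library was left out (adjusted p at most 0.0153). In bright GEC it did not pass between AS and WT by the quasi-likelihood test, but did by DESeq2 and the likelihood ratio test. *Cxcl12* had its lowest mean in AS-dim, as *Ackr3* had, but did not pass there between AS and WT. The means of *Cx3cl1* and of the endothelial and podocyte marker sums were lowest in AS-dim as well, and a link was not tested. *Ackr2* was at 2.59 to 11.2 CPM in WT-bright and 9.76 to 12.9 CPM in AS-bright, and at most 3.55 CPM in dim libraries. *Ccrl2* was at 233 to 491 CPM in every library. In AS it was lower in bright than in dim GEC (log2 fold change -0.61, standard error 0.17, adjusted p = 0.012), but not without AS-bright replicate 1. There 26.5% of all genes were lower. *Ackr2* (7.54, adjusted p = 1.8e-06) and *Ackr3* (4.08, adjusted p = 4.72e-05) were higher in bright GEC in AS, where 28.6% of all genes were, all by the quasi-likelihood test.

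**Figure D5:**
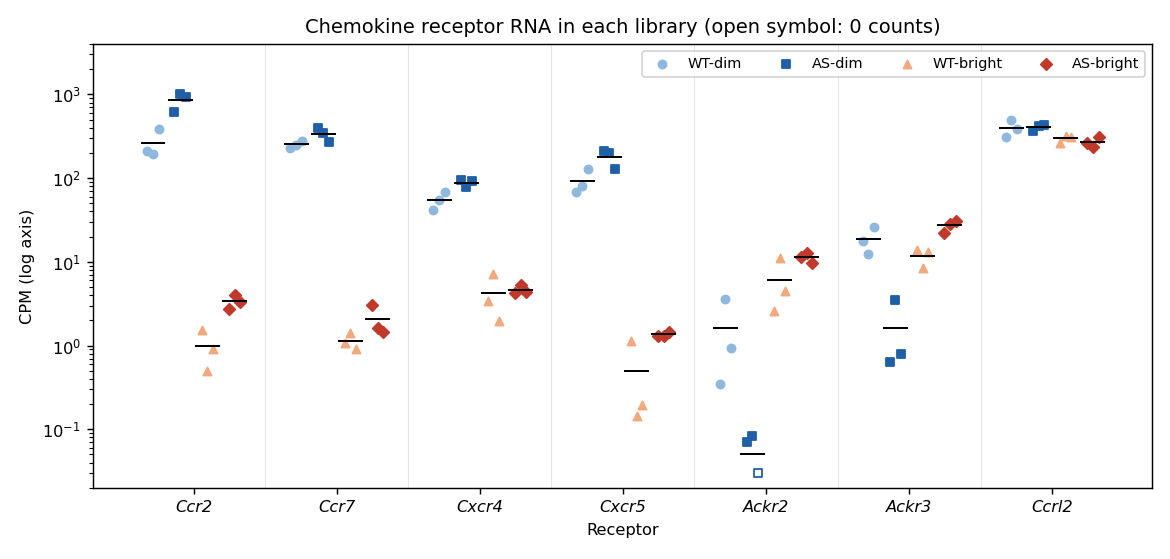
Each point is the level of a receptor in 1 library, in CPM on a log axis, with the mean of 3 libraries as a line; the open square is an AS-dim library with 0 counts of Ackr2. Ccr2, Ccr7, Cxcr4 and Cxcr5 sit high in dim and low in bright libraries, and Ackr3 is lowest in AS-dim.

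Of the 16 other CC ligands, 5 were in both tables, and in dim GEC 1 of 5 tested was higher in AS, where 2.21% of all genes were. It was *Ccl7*, a relative of *Ccl2* that also acts on CCR2, with 0, 2 and 1 counts in WT-dim and 23, 32 and 20 in AS-dim, a ratio of 22.6 (95% exact interval 7.46 to 112, counting error only), and its log2 fold change passed (adjusted p = 0.023). It entered the test through its AS-dim libraries, and it no longer passed when any 1 of the AS-dim libraries was left out (adjusted p = 0.0649 to 0.113) or without WT-dim replicate 1 (0.0542) or 2 (0.0586). *Ccl9*, a close relative of *Ccl6*, was at 375 to 703 CPM in WT-dim and 795 to 936 CPM in AS-dim and at most 8.22 CPM in bright libraries. Bright over dim, *Ccl9* and *Ccl22* were lower in both genotypes and *Ccl7* in AS, where it did not pass without AS-dim replicate 2 (0.0813) or AS-bright replicate 2 (0.0851) or 3 (0.109), nor by DESeq2 (0.0751). Of the 12 other CXC and XC ligands, 5 could be tested between bright and dim GEC, and of these *Cxcl2*, *Pf4* and *Ppbp* were lower in bright GEC in both genotypes, where 11.5% of all genes in WT and 26.5% in AS were. The AS call of *Pf4* was lost without AS-dim replicate 1 (0.0673) or AS-bright replicate 1 (0.0631) or 3 (0.0626). *Ccl7*, *Ccl22*, *Pf4* and *Ppbp* were too low to be tested among the bright libraries. *Cxcl2*, which acts on neutrophils as *Cxcl1* does, was at 268 to 668 CPM in dim and 13.4 to 29.3 CPM in bright libraries, opposite to *Cxcl1*. *Cxcl13*, a B cell attractant, was higher in bright GEC in AS (log2 fold change 2.27, standard error 0.52, adjusted p = 0.00398), and *Xcl1* was listed for dim GEC alone, at 9.53 to 24.8 CPM. In bright GEC 0 of the 3 other CC and 4 other CXC and XC ligands that could be tested passed between AS and WT by edgeR (0.452% of all genes) or DESeq2 (7.49%), and 3 of the CXC ligands (*Cxcl2*, *Cxcl9* and *Cxcl11*) had an unadjusted p under 0.05 (21.8%).

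Among the proteases that shed or trim chemokines, 0 of 5 passed between AS and WT in dim GEC (8.63% of all genes) and 0 of the 3 that could be tested in bright GEC (0.452%), by edgeR or DESeq2, and 0 had an unadjusted p under 0.05. *Adam10* and *Adam17*, which release *Cx3cl1* and *Cxcl16* from the membrane, were at 41.5 to 113 CPM and 51.8 to 129 CPM over all libraries. Bright over dim in AS, *Adam17* was lower (log2 fold change -0.66, standard error 0.19, adjusted p = 0.0163, edgeR's quasi-likelihood test), where 26.5% of all genes were. It did not pass without AS-dim replicate 1 (0.0671) or 3 (0.0609) or AS-bright replicate 1 (0.0743). *Dpp4*, which trims *Cxcl10* and *Cxcl12*, was at 142 to 236 CPM in dim and 16.5 to 73 CPM in bright libraries. *Mmp9* and *Mmp12* were at 76.3 to 574 and 13.9 to 39.8 CPM in dim libraries and at most 2.56 and 0.587 CPM in bright ones.

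Of 9 transcription factors and feedback genes that act on chemokine genes, *Irf1*, an interferon-responsive factor, was the 1 that was higher in bright GEC, where 13.8% of all genes in WT and 28.6% in AS were. It was at 182 to 236 CPM in WT-dim and 1148 to 1267 CPM in WT-bright, 2.53 higher on the log2 scale (standard error 0.22, adjusted p = 6.61e-05), and bright over dim it was 2.84 higher in AS mice (standard error 0.33, adjusted p = 4.46e-05). *Nfkb1*, *Nfkb2* and *Tnfaip3* were lower in bright GEC in both genotypes, and *Relb*, *Nfkbia* and *Hif1a* in AS, where 11.5% of all genes in WT and 26.5% in AS were lower. The WT call of *Nfkb1* (adjusted p = 0.0168) was lost without WT-dim replicate 2 (0.0538) or 3 (0.0522) or WT-bright replicate 1 (0.0557) or 3 (0.0761). *Hif1a* was the 1 of 9 that was higher in AS in dim GEC (log2 fold change 0.83, standard error 0.17, adjusted p = 0.0288), where 2.21% of all genes were. It no longer passed when any 1 of the AS-dim libraries was left out (0.0818 to 0.151) or without WT-dim replicate 1 (0.0544) or 2 (0.0595). In dim GEC 6 of the 9 had an unadjusted p under 0.05, where 26.3% of all genes did. In bright GEC 0 of 9 passed by edgeR's quasi-likelihood test (0.452% of all genes), 6 had an unadjusted p under 0.05 (21.8%) and 2, *Nfkb2* and *Irf7*, passed by DESeq2 (7.49%). The lists' median log2 fold changes of AS over WT in dim GEC were -0.04 for the other CC ligands, 0.05 for the other CXC and XC ligands, 0.67 for the receptors, -1.79 for the atypical receptors, -0.12 for the proteases and 0.53 for the transcription factors, beside -0.02 over all genes.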

How the data were processed

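RNA was poly-A selected and sequenced by the authors as paired ends. They aligned reads with STAR 2.6.0c to GRCm38.p5 with Gencode annotation and deposited the reads counted per gene, so the deposited counts are not normalized. The tables also hold gene lengths and the authors' RPKM, fold changes, likelihood ratios and p-values, which were not used here. The 92 ERCC spike-in rows, 0.0286% to 0.282% of counts, were left out. CPM were computed with TMM over the 12 libraries, and RPKM with the union of exons in Gencode M21. Each comparison was fitted in edgeR 4.0.16 (R 4.3.3) with filterByExpr, TMM and the version 4 quasi-likelihood test, adjusted by Benjamini-Hochberg across the genes tested, threshold 0.05. AS over WT was fitted within the 6 libraries of a subpopulation and bright over dim within the 6 of a genotype, on genes in both tables; the interaction used all 12. The labels give dim and bright libraries of a number the same mouse, and their deviations correlated at 0.0796 to 0.385. Exact intervals at 95% were Clopper-Pearson. The ligands, lists and tests were chosen with earlier results of these data known. Listed genes were named if above 10 CPM in a group, at most 5 per list; *Ccl7*, *Ccl22*, *Ccr6*, *Cx3cr1*, *Xcr1*, *Cxcl9*, *Cxcl11*, *Irf7*, *Pf4*, *Nfkb2* and *Relb* were named after their values were seen. Among the listed genes, 2 are not reported here and were left out of the lists' counts and medians after the values were seen, which brought *Ccr9* and *Hif1a* under the naming rule. Replicates are separate mice. Scripts were tested on simulated data. Alternatives were RLE, library sizes alone, no filter, DESeq2 1.42.0, the likelihood ratio test, a replicate block and each library left out, and the version 3 quasi-likelihood fit. That last fit is the default of this edgeR release and was run first; the version 4 fit was made the main one after its results were seen, to follow an earlier processing of these data.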

Additional observations from a re-analysis of the deposited data

Results flagged for a closer look

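*Cx3cl1* was picked out because its AS over WT difference itself differed between the subpopulations, by 2.98 on the log2 scale in the interaction term (standard error 0.45, adjusted p = 0.00432, edgeR's quasi-likelihood test). It was lower in 3 of 3 AS-dim libraries than in every WT-dim library, and its mean was higher in AS-bright than in WT-bright.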

How the results depend on the processing

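With 3 mice per group, a ligand that missed the threshold was not shown to be level. Between the bright groups *Ccl2*, *Ccl3*, *Ccl4* and *Ccl5* fell below the filter of the main test. They were compared there by summed counts, with every gene kept and, for *Ccl2* and *Ccl4*, with some single libraries left out. Of 658 alternative values of a ligand's log2 fold change, 627 kept direction and side of the threshold; the cause of the changes was not tested unless fewer libraries were used. In dim GEC, AS over WT, 1 ligand passed, and 2 with library sizes alone, 3 by DESeq2 and 2 by the likelihood ratio test, with 0 to 2 when each library was left out (2 without WT-dim replicate 3, 0 without any 1 of the AS-dim libraries). Calls over all genes went from 1263 to 2213 by DESeq2, 1946 by the likelihood ratio test and 582 by the version 3 fit, and to 0 to 1825 with a library left out. In bright GEC 0 ligands passed, and 1 by DESeq2 and by the likelihood ratio test, and 65 genes became 39 with every gene kept, 1078 by DESeq2, 827 by the likelihood ratio test, 0 by the version 3 fit and 0 to 281 with a library left out. For the interaction 1 ligand passed, and 1 to 2 with a library left out, and 569 genes became 1184 by DESeq2, 1114 by the likelihood ratio test and 252 to 857 with a library left out. The version 3 fit gave the same number of ligands as the version 4 fit in the 3 comparisons above. Library sizes alone moved the median interaction of all genes from 0.13 to -0.03.

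A replicate block left 0 ligands (*Cx3cl1* at -2.09, adjusted p = 0.0521) and 494 genes in dim GEC, where *Ackr3* (adjusted p = 0.0534) and *Hif1a* (0.074) no longer passed either, and 16 genes in bright GEC. In both comparisons AS and WT mice share a number only, and deviations of a number correlated at -0.155 to 0.129. With the mouse as the block, 877 genes passed the interaction, and the calls of the ligands between bright and dim GEC and in the interaction stood.

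Directions turned for ligands that did not pass. *Ccl3* in dim GEC, at -0.00, was 0.05 with library sizes alone, 0.0042 with every gene kept, 0.01 with the replicate block, and -0.20 to 0.27 with a library left out. With a library left out, AS over WT in dim GEC ran from -0.21 to 0.56 for *Ccl6*, -0.59 to 0.05 for *Cxcl1* and -0.29 to 0.62 for *Cxcl10*, in bright GEC from -0.60 to 0.34 for *Ccl6*, bright over dim in WT from -1.33 to 0.23 for *Cxcl12*, and the interaction from -0.71 to 0.32 for *Ccl6* and -0.33 to 0.06 for *Cxcl16*.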

Other observations

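The third AS mouse had the highest *Cxcl10* of the AS mice in both subpopulations, 50.6 CPM in dim and 382 CPM in bright GEC, where the other AS libraries had 21.5 and 15.4 CPM and 253 and 271 CPM. *Irf1* was at 402 CPM in the dim library of the same mouse, against 168 and 208 CPM in the other AS-dim libraries, while its bright library had 1984 CPM and the other AS-bright libraries 2131 and 1505 CPM. *Cx3cl1* was at 956 CPM in its bright library, the highest of the 12 libraries. Without that mouse's bright library, the AS over WT log2 fold change in bright GEC was 0.70 for *Cxcl10* (adjusted p = 0.243) and 0.53 for *Cx3cl1* (adjusted p = 0.382, edgeR's quasi-likelihood test). Without its dim library, that of *Cxcl10* in dim GEC turned from 0.36 to -0.29 (adjusted p = 0.743).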
